A study of Homo sapiens with 4 samples.

Results

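The histone deacetylase genes *HDAC1* to *HDAC10* were taken by their GENCODE 44 symbols, and all 10 were found among the 20033 protein-coding genes considered. For each gene, every Flag-FLI1 peak inside the gene, less than 3 kb from one of its annotated transcription start sites (TSSs), or within 50 kb of the gene was collected. This gave 59 of the 30819 peaks of the control library and 61 of the 39654 peaks of the IFN-γ library. The cells were of HK1, a nasopharyngeal carcinoma cell line, and in both libraries they carried extra FLI1, an ETS-family transcription factor, with a Flag tag. The control cells received PBS and the others IFN-γ for 24 h. The immunoprecipitation was against the tag, and peaks therefore mark the introduced FLI1 and not the cells' own. With 1 library per condition no treatment effect could be tested, and IFN-γ cannot be told apart from any other difference between the 2 libraries. The peak lists hold no expression values, so neither the cell type nor the levels of the deacetylases could be checked.

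Histone deacetylases remove acetyl groups from lysines, on histones and on other proteins, and so oppose acetyltransferases such as CBP. Class I enzymes (HDAC1, HDAC2, HDAC3 and HDAC8) are mainly nuclear, and most work inside corepressor complexes. Class IIa enzymes (HDAC4, HDAC5, HDAC7 and HDAC9) shuttle between nucleus and cytoplasm and bind MEF2 transcription factors, while class IIb holds HDAC6, a tubulin deacetylase, and HDAC10, a polyamine deacetylase.

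Of the HDAC peaks, 4 of 59 control and 8 of 61 IFN-γ peaks had a run of GGAA, the core that ETS factors recognise. A run was at least 4 tandem copies within 100 bp of the summit. Over the whole lists 6.94% of control and 10.8% of IFN-γ peaks had one. The repeats inside a gene away from its promoters, and the strongest one outside each gene that had one within 50 kb, are shown first because the strongest peaks of *HDAC1*, *HDAC5* and *HDAC8* outside their promoters lay on them. The reference sequence (GRCh38) of the longest run within 100 bp of each summit is printed 5′ to 3′ with 15 bases either side, on the strand that reads GGAA, with the run in capitals.
*HDAC9* intron 16, chr7:18786572-18786633, minus strand, 8 units: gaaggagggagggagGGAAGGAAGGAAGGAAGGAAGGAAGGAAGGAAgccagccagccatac
*HDAC9* intron 2, chr7:18547794-18547871, minus strand, 12 units: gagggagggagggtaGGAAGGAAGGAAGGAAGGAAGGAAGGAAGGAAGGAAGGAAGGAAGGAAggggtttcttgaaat
*HDAC8* upstream, chrX:72615738-72615807, plus strand, 10 units: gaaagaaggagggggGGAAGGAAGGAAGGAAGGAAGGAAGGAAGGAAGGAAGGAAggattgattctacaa
*HDAC5* upstream, chr17:44137089-44137182, plus strand, 16 units: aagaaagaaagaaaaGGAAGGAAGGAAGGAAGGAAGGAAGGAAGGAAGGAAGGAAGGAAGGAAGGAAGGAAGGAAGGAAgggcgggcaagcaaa
*HDAC7* upstream, chr12:47859852-47859929, minus strand, 12 units: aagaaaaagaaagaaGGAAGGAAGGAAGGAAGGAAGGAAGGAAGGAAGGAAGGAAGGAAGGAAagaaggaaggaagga
*HDAC1* upstream, chr1:32242417-32242466, plus strand, 5 units: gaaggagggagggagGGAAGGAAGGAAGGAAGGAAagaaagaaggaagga

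A second set holds the IFN-γ summits with CAGGAAGT or CCGGAAGT, the longer ETS motif, inside an HDAC gene or counted at its promoter. The motif is in capitals, with 10 bases either side.
*HDAC9* intron 12, chr7:18667652-18667679, plus strand: cttgtggaaaCAGGAAGTccaagtgatt
*HDAC9* intron 16, chr7:18786526-18786553, minus strand: acaggggacaCAGGAAGTgtatgtgagc
*HDAC9* internal TSS, chr7:18509236-18509263, plus strand: tagaatagagCAGGAAGTgttctggagc
*HDAC1* intron 3, chr1:32321928-32321955, plus strand: agtgtttaccCAGGAAGTgaggaagaga
*TUBGCP6* TSS, within 3 kb of an *HDAC10* TSS, chr22:50245098-50245125, minus strand: cggactcaggCCGGAAGTatgccgcggc

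The last set shows summits counted as promoter peaks that lack that motif, as 81 bases centred on the summit, on the strand of the gene, with each GGAA core (TTCC where it lies on the other strand) in capitals. Those of *HDAC1* and *HDAC5* are IFN-γ summits, and those of *HDAC7* and *HDAC8* are control summits. The IFN-γ summits of *HDAC7* and *HDAC8* lay 578 bp and 196 bp away, and that of *HDAC7* had 7 GGAA cores within 100 bp.
*HDAC1* promoter, chr1:32292308-32292388, plus strand: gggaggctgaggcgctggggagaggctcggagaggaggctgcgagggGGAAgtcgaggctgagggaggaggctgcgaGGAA
*HDAC7* promoter, chr12:47820062-47820142, minus strand: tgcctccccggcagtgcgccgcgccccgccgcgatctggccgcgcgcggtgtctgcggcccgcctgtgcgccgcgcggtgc
*HDAC8* promoter, chrX:72573081-72573161, minus strand: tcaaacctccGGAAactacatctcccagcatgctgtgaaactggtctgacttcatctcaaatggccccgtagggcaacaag
*HDAC5* intron 3, chr17:44095769-44095849, minus strand: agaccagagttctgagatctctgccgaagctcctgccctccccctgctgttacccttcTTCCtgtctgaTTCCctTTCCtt

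Promoter peaks were called at nearly every HDAC gene. A promoter peak, taken as one less than 3 kb from any annotated TSS of the gene, was present at 9 of the 10 genes in the control library, where 61.9% of protein-coding genes had one. With IFN-γ all 10 had one, where 59.7% of protein-coding genes did. The HDAC genes have 10 to 84 annotated transcripts each, and among coding genes with at least 10 transcripts the shares were 81.8% and 79.2%. The gene without a control promoter peak was *HDAC9*. A promoter peak in the IFN-γ library only was seen at 3.70% of coding genes, and 56.0% had one in both. By height the HDAC promoter peaks lay around or below the middle of all genes. Taking the strongest of each gene, their median fold enrichment over the local background was 9.65 in the control library, against 10.5 over coding genes, and 5.99 in the IFN-γ library, against 9.12. Of the HDAC genes with a promoter peak, 4 of 9 and 4 of 10 lay above those medians, and the strongest peak at *HDAC10* was that of a neighbour.

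**Figure D1:**
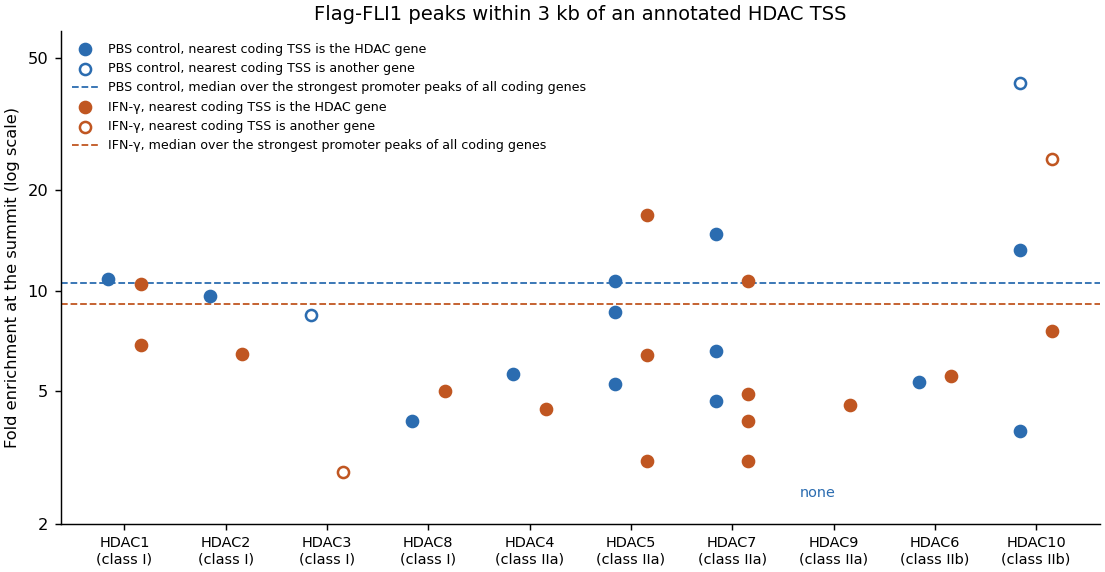
Fold enrichment at the summit (log axis) of every peak within 3 kb of an annotated TSS of an HDAC gene, 1 point per peak, in the control (blue) and IFN-γ (orange) libraries; open points have a summit nearest to the TSS of another coding gene, and dashed lines are the medians over coding genes, 10.5 and 9.12. The highest points, at *HDAC10*, are those of the neighbour *TUBGCP6*, and *HDAC9* has no control point.

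Among the class I genes, *HDAC1* had the strongest promoter peak. HDAC1 and its close paralog HDAC2 are the catalytic subunits of the SIN3, NuRD and CoREST complexes. *HDAC1* (ENSG00000116478) lies at chr1:32292083-32333635 on the plus strand. Its control promoter peak, chr1:32291657-32292665, held 28 fragments at the summit, a fold enrichment of 10.8. Its IFN-γ counterpart, chr1:32291797-32292512, held 28 fragments, a fold enrichment of 10.5. The summits lay 2 bp apart in intron 1 of the MANE Select transcript, 263 bp and 265 bp downstream of its TSS, on the GGAA-bearing sequence printed above. The IFN-γ library also had peaks in intron 2, with a fold enrichment of 4.80, and intron 3, with a fold enrichment of 9.07 and 22 fragments on a CAGGAAGT site, neither with a control counterpart.

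At *HDAC2* (ENSG00000196591, chr6:113933028-114011308, minus strand) a single peak was found within the whole search span in each library. Its fold enrichment was 9.65 in the control library, from 19 fragments, and 6.44 in the IFN-γ library, from 16 fragments. The control summit lay 258 bp upstream of the MANE TSS and 89 bp from the TSS of the antisense RNA gene *HDAC2-AS2*, and the IFN-γ summit lay in exon 1, 77 bp downstream of the MANE TSS.

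*HDAC3* (ENSG00000171720, chr5:141620876-141636849, minus strand) encodes another class I enzyme that works inside corepressor complexes. Its promoter peak had a fold enrichment of 8.48 from 19 control fragments and of 2.86 from 15 IFN-γ fragments over a background of 4.60. The IFN-γ peak ranked 38310 of 39654. In both libraries the summit was closer to the TSS of the divergent neighbour *RELL2* (139 bp and 17 bp) than to that of *HDAC3* (302 bp and 131 bp), so the peak cannot be assigned to either gene alone.

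*HDAC8* (ENSG00000147099, chrX:72329516-72573101, minus strand) encodes an enzyme that acts on the cohesin subunit SMC3. Its promoter peak had a fold enrichment of 4.08 from 14 control fragments and of 5.02 from 20 IFN-γ fragments. The control summit lay 20 bp from an annotated TSS. Within the 244 kb gene no other peak was called. The strongest peak of *HDAC8* was the upstream GGAA repeat, 42.9 kb from the MANE TSS, with a fold enrichment of 14.9 and 44 fragments in the IFN-γ library and no control counterpart.

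Among the class IIa genes, the strongest peak lay outside the gene for *HDAC4*, *HDAC5* and *HDAC7* in both libraries, and inside it for *HDAC9*. *HDAC7* (ENSG00000061273, chr12:47782722-47833132, minus strand) had the strongest promoter peak of the class at a MANE TSS. The peak at chr12:47818824-47820835 had a fold enrichment of 14.8 from 35 control fragments, and its IFN-γ counterpart had 10.7, from 55 fragments. The peaks were 2012 bp and 1914 bp wide, and their summits lay 199 bp and 777 bp upstream of the MANE TSS, beside different annotated TSSs. A further peak at an internal TSS in intron 1 had fold enrichments of 6.59 and 4.90.

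*HDAC5* (ENSG00000108840, chr17:44076746-44123702, minus strand) carried 3 peaks by the promoter rule in each library. At the MANE TSS, fold enrichments were low, 5.25 from 11 fragments in the control library and 3.08 from 13 fragments in the IFN-γ library, with summits 572 bp apart. At an internal TSS in intron 2 they were 10.7 from 21 fragments and 6.40 from 19 fragments, with summits 12 bp and 4 bp from the TSS. In intron 3, 2308 bp and 2304 bp upstream of another internal TSS, they were 8.64 from 25 fragments and 16.9 from 63 fragments. By fold enrichment the strongest of the 3 was thus the intron 2 peak in the control library and the intron 3 peak with IFN-γ. By fragments at the summit, the intron 3 peak was the highest in both libraries.

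*HDAC4* (ENSG00000068024, chr2:239048168-239401654, minus strand) had a weak promoter peak, with a fold enrichment of 5.61 from 14 control fragments and of 4.42 from 13 IFN-γ fragments. It was the only HDAC promoter peak with no GGAA core within 100 bp of the summit in either library. Inside the gene each library had 4 further peaks, of which those in introns 16 and 24 were shared. The intron 16 peak, 302 kb downstream of the MANE TSS, had fold enrichments of 7.69 and 6.77 from 17 and 22 fragments. A pair of shared peaks lay 43.4 kb and 44.3 kb upstream of the MANE TSS, with fold enrichments of 8.13 and 7.79 for the control peaks and of 10.3 and 8.09 for the IFN-γ peaks.

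*HDAC9* (ENSG00000048052, chr7:18086949-19002416, plus strand), the longest of the genes at 915 kb, had its signal inside the gene. At its MANE TSS no peak was called in either library. The promoter peak counted for the IFN-γ library, chr7:18509110-18509368, had a fold enrichment of 4.54 from 18 fragments, and its summit lay in MANE intron 2, 11 bp from an internal TSS, on a CAGGAAGT site.

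The strongest *HDAC9* peak lay in MANE intron 12. It spanned chr7:18667524-18667824 in the control library, with a fold enrichment of 10.6 from 31 fragments, and chr7:18667193-18667902 in the IFN-γ library, with a fold enrichment of 36.1 from 94 fragments, within the top 2.57% of the list. The IFN-γ summit also falls in the 3′ UTR of 9 of the 36 annotated *HDAC9* transcripts, which end between positions 18667993 and 18668843. HDAC9 is known to be made also as a shorter form without the catalytic domain. The CAGGAAGT site lay 11 bp from the summit.

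The next peak, in intron 16 on the GGAA repeat, had a fold enrichment of 5.08 from 16 control fragments and of 19.3 from 48 IFN-γ fragments. In the IFN-γ library alone, peaks were called in intron 2 on the repeat of 12 units, with a fold enrichment of 9.46 from 23 fragments, in exon 12, with 6.54 from 31 fragments, and in intron 22, with 4.42 from 13 fragments. The control library had 0.218 peaks and the IFN-γ library 0.655 peaks per 100 kb of *HDAC9*, below the medians over coding genes of 1.57 and 1.68 per 100 kb.

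**Figure D2:**
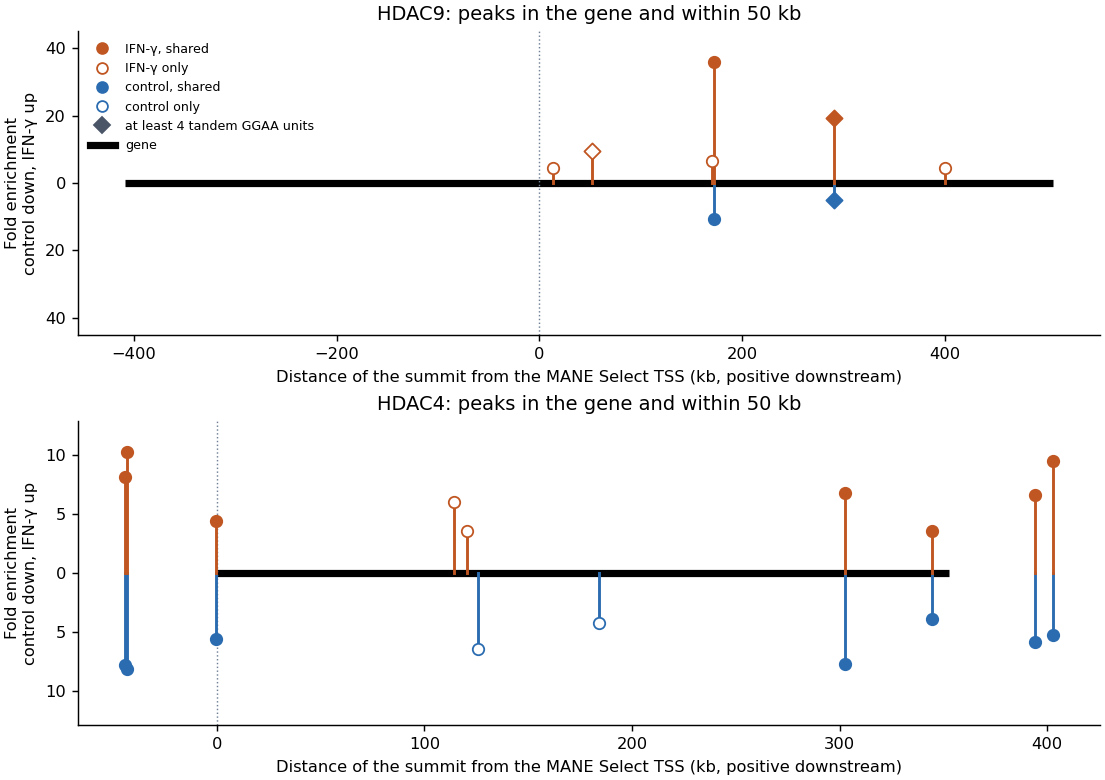
Peaks of *HDAC9* (top) and *HDAC4* (bottom) by the distance of the summit from the MANE TSS in kb; lines reach to the fold enrichment, upwards for the IFN-γ library and downwards for the control library, filled markers are shared peaks, open markers were called in 1 library, and diamonds mark at least 4 tandem GGAA units. In *HDAC9* the IFN-γ lines reach 36.1 and 19.3 where the control lines reach 10.6 and 5.08, while inside *HDAC4* the shared peaks stand at 7.69 and 6.77 and at 3.89 and 3.52; the vertical scales of the panels differ.

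In class IIb, *HDAC6* (ENSG00000094631, chrX:48801377-48824982, plus strand) had 1 promoter peak, with a fold enrichment of 5.32 from 15 control fragments and of 5.55 from 17 IFN-γ fragments. Its only other peak lay 65.9 kb downstream of the MANE TSS, with *PQBP1* as the nearest coding gene. Fold enrichments there were higher, 5.84 from 11 control fragments and 8.52 from 24 IFN-γ fragments. By −log10 p this peak exceeded the promoter peak with IFN-γ (18.8 against 10.4) but not in the control library (8.82 against 9.29). *HDAC10* (ENSG00000100429, chr22:50245183-50251405, minus strand) is only 6.22 kb long. At its own TSS, fold enrichments were 13.2 (control) and 7.57 (IFN-γ), from 30 fragments each, and both summits lay 3 bp from an annotated TSS. A stronger peak at its downstream end, with fold enrichments of 41.9 and 24.8 from 92 and 103 fragments, met the promoter rule through an *HDAC10* TSS 2.87 kb away. Its summit lay 60 bp and 55 bp from the TSS of *TUBGCP6*, which encodes a component of the γ-tubulin complex, on the CCGGAAGT site printed above.

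Without regard to place, the median HDAC gene held 3.11 peaks per 100 kb of its gene and flanks with PBS (range over the genes 0.197 to 10.4) and 3.46 with IFN-γ (0.561 to 7.98). The medians over all coding genes, searched the same way, were 1.82 and 2.15, and 6 and 5 of the 10 HDAC genes lay above them. *HDAC9*, the longest gene, had 0.197 and 0.591. The 10 genes pooled gave 2.13 and 2.20 peaks per 100 kb, where the whole genome, including sequence far from genes, held 1.02 and 1.31. These pooled values are not comparable with the medians per gene. Of the HDAC peaks, 15 and 17 were at promoters, 8 and 12 elsewhere in the gene, and 36 and 32 within 50 kb. A gene-body peak away from the promoters of all genes was found at 3 HDAC genes in the control library (*HDAC4*, *HDAC5* and *HDAC9*), where 15.5% of coding genes had one. In the IFN-γ library it was found at 4 (*HDAC1*, *HDAC4*, *HDAC7* and *HDAC9*), where 21.7% had one. These shares were not matched for gene length, and *HDAC4* and *HDAC9* are 353 kb and 915 kb long.

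**Figure D3:**
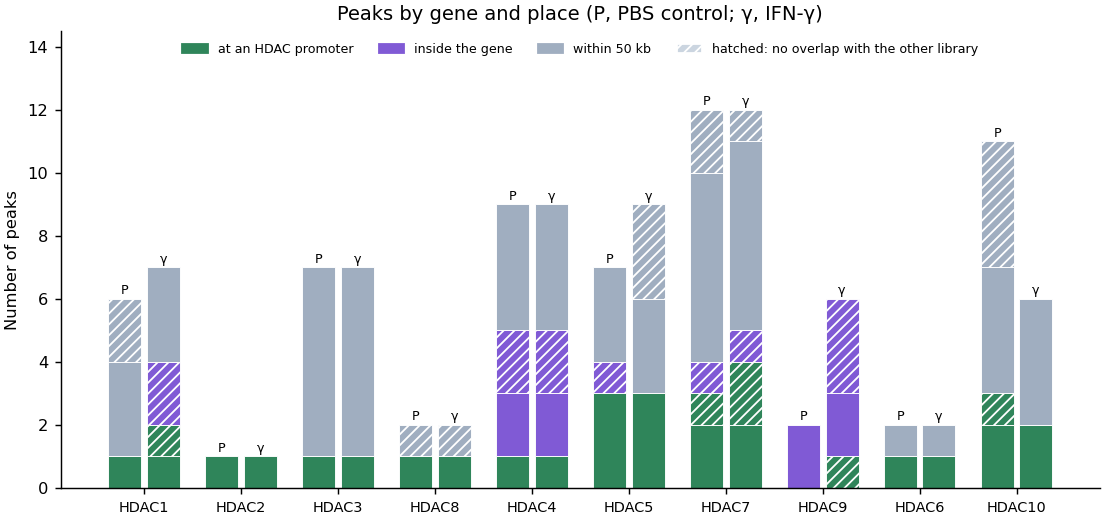
Number of peaks of each HDAC gene in the control (P) and IFN-γ (γ) libraries, stacked by place (promoter, inside the gene, within 50 kb); hatched parts do not overlap a peak of the other library. *HDAC7* has 12 peaks in each library and *HDAC2* has 1, and *HDAC9* goes from 2 to 6 while *HDAC10* goes from 11 to 6.

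Most HDAC peaks were found in both libraries. Of the control peaks 44 of 59, or 74.6% (61.6% to 85.0%), overlapped an IFN-γ peak, against 77.5% of all control peaks. Of the IFN-γ peaks 44 of 61, or 72.1% (59.2% to 82.9%), overlapped a control peak, against 61.0% of all IFN-γ peaks. The ranges are exact Clopper-Pearson 95% intervals and cover counting error only, and each held the share of the whole list. Of the unshared HDAC peaks, 13 of the 15 control-only and 13 of the 17 IFN-γ-only peaks ranked below the median of their list, where 87.8% and 73.8% of all unshared peaks did. The IFN-γ library is the deeper, by a factor of 1.46 from the lowest backgrounds. When the pileup and background of each IFN-γ-only HDAC peak were scaled down by this factor, all 17 kept a −log10 p above 3.52, the lowest in the control list, as did 93.5% of all IFN-γ-only peaks. With the factor from median backgrounds, 1.83, 15 of the 17 did, where 88.3% of all did. With the first factor the scaled value was 30.4 for the *HDAC8* repeat, and for the *HDAC9* intron 2 repeat 14.3.

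Signal at the shared peaks was compared as the ratio of the IFN-γ to the control summit pileup, scaled for depth. Over the 13 HDAC promoter pairs the median ratio was 0.769, against 0.884 over 13598 promoter pairs of all genes. The ratio was at least 1.5-fold higher with IFN-γ at 1 of the 13, where 10.7% of all promoter pairs were, and at least 1.5-fold lower at 4, where 22.5% were. By gene, the pairs with the largest pileups had ratios of 0.687 at *HDAC1* (exact 95% interval 0.392 to 1.2), 0.578 at *HDAC2* (0.278 to 1.19), 0.542 at the peak between *HDAC3* and *RELL2* (0.256 to 1.13), 0.981 at *HDAC8* (0.471 to 2.1), 0.638 at *HDAC4* (0.276 to 1.46), 1.08 at *HDAC7* (0.694 to 1.70) and 0.778 at *HDAC6* (0.366 to 1.67). At the *HDAC10* TSS the ratio was 0.687 (0.400 to 1.2). All of these intervals held both 1 and the median of all promoter pairs, so no difference between the libraries was detectable at this depth. At the *HDAC5* intron 3 peak the ratio was 1.73 (1.07 to 2.87), an interval above both 1 and that median. Its summits lay 2308 bp and 2304 bp from the nearest TSS, and the interval held the median over all distal pairs, 1.24. When the pileups were scaled by the ratio of the median backgrounds, the ratio at this peak became 1.38 (0.856 to 2.29) and its interval held 1. With that scaling the intervals at *HDAC1* (0.313 to 0.960), *HDAC2* (0.222 to 0.947), *HDAC3* (0.205 to 0.898) and the *HDAC10* TSS (0.319 to 0.941) fell below 1, as did those at the *HDAC5* intron 2 TSS (0.252 to 0.969) and at *TUBGCP6* (0.458 to 0.821). That scaling lowered the ratios of all promoter pairs, and so their median, by the same factor. By construction, therefore, the intervals that fell below 1 held that median, and the *HDAC5* intron 3 interval lay above it, as with the first scaling. Whether the promoter intervals held 1 thus depended on how depth was set, while their place relative to the median of all promoter pairs could not change.

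Away from the promoters of all genes, 13 shared pairs lay in or within 50 kb of an HDAC gene, with a median ratio of 1.5 against 1.24 over 9807 such pairs. Of these, 6 were at least 1.5-fold higher with IFN-γ, where 32.7% of all distal pairs were, and 0 were at least 1.5-fold lower, where 6.33% were. At the *HDAC9* intron 12 peak the ratio was 2.08 (1.37 to 3.23), at the 89.2 percentile of distal pairs. At the *HDAC9* intron 16 repeat it was 2.06 (1.15 to 3.89), at the 87.9 percentile. Scaled by median backgrounds these became 1.66 (1.10 to 2.58) and 1.64 (0.917 to 3.10), so for the repeat the interval then held 1. The lower bound at intron 12 lay above the distal median with the first scaling, and the other scaling moves both by the same factor. The shared *HDAC4* peaks in introns 16 and 24 gave ratios of 0.889 (0.451 to 1.78) and 0.981 (0.337 to 3.04).

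**Figure D4:**
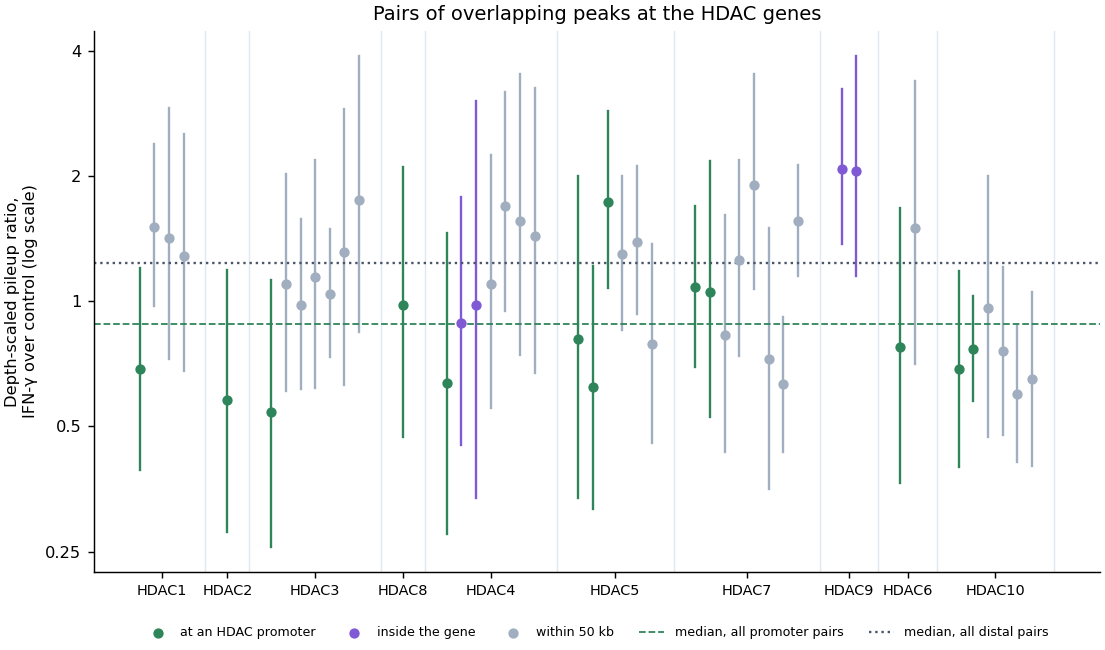
Depth-scaled ratio of summit pileups, IFN-γ over control (log axis), for each shared pair of peaks at the HDAC genes, with exact 95% intervals for counting error; colours give the place, and lines mark the medians over all promoter pairs (0.884) and all distal pairs (1.24). Most intervals cross 1, and both *HDAC9* pairs inside the gene lie above it.

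Each summit was searched for motifs on either strand, to 100 bp on each side. At HDAC promoter peaks, CAGGAAGT or CCGGAAGT was found at 1 of 15 control summits (6.67%, 0.169% to 31.9%) and 2 of 17 IFN-γ summits (11.8%, 1.46% to 36.4%), against 13.4% and 15.0% of all promoter peaks. The control match was that of *TUBGCP6*, and the IFN-γ library added the *HDAC9* internal TSS, and the other HDAC promoter summits had the core alone or, at *HDAC4*, no core. GGAA itself was within 100 bp of 14 of 15 and 16 of 17 summits, and of 94.3% and 97.1% of all promoter peaks. The AP-1 motif TGANTCA was found at 0 of 15 and 1 of 17 (8.19% and 10.6% of all promoter peaks). TTCNNNGAA, the motif of STAT dimers, which can overlap a GGAA core, was found at 0 and 1 (4.44% and 5.19%), the match being at *HDAC8*. Away from the promoters of all genes, CAGGAAGT or CCGGAAGT was found at 2 of 17 control and 4 of 24 IFN-γ summits (12.0% and 12.3% of all such peaks) and TGANTCA at 2 and 2 (21.9% and 23.0%).

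Runs of at least 4 GGAA units were found at 2 of these 17 control summits (11.8%) and 4 of these 24 IFN-γ summits (16.7%), where 13.2% and 17.0% of all distal peaks had one. In the control library the 2 had a median fold enrichment of 6.14, against 5.84 for the 15 without a run. In the IFN-γ library the 4 had a median of 15.8, against 6.29 for the 20 without a run, and over all distal peaks the medians were 8.0 and 6.07. The *HDAC7* upstream repeat, 39.9 kb from the MANE TSS with *VDR* as the nearest coding gene, had fold enrichments of 7.20 from 17 fragments and 16.8 from 47 fragments, a ratio of 1.90 (1.07 to 3.53) that became 1.51 (0.854 to 2.81) with the other scaling. The *HDAC5* upstream repeat, 13.6 kb from the MANE TSS and 1.21 kb from the small RNA pseudogene *RNU6-131P*, had 11.7 from 38 fragments and 22.4 from 77 fragments, a ratio of 1.39 (0.932 to 2.11). The *HDAC1* upstream repeat, at 49.6 kb, had 14.4 from 31 fragments and 22.1 from 68 fragments, a ratio of 1.51 (0.972 to 2.38). The latter 2 lay within 3 kb of a TSS of another gene and so were not among the distal peaks. How uniquely reads align to such repeats was not tested.

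Other deacetylases and the partners of the HDAC enzymes were taken from lists of 52 genes in all. A promoter peak was present at 50 of them in the control list and at 48 with IFN-γ, beside 61.9% and 59.7% of coding genes. Among coding genes with at least 10 transcripts the shares were 81.8% and 79.2%, and the listed genes were not matched for transcript number. Median fold enrichments of the strongest promoter peaks were 14.0 and 11.1, above those of the HDAC genes (9.65 and 5.99), a difference that was not tested. As with *HDAC10*, some of these peaks lay nearer to the TSS of a neighbour. Of the 8 other deacetylases 7 had a promoter peak in both libraries, the exception being the mitochondrial sirtuin gene *SIRT4*. *SIRT6*, which encodes a nuclear NAD-dependent deacetylase, had the strongest, with fold enrichments of 75.1 and 76.2 at ranks 34 and 18 of the lists, its summits 5 bp and 3 bp from a TSS. *HDAC11*, the class IV gene, had fold enrichments of 14.0 and 6.26.

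Every NuRD gene (11 of 11), MiDAC gene (3 of 3) and class IIa partner (8 of 8) had a promoter peak in both libraries, where 56.0% of coding genes did. By library, the shares of coding genes were 61.9% (control) and 59.7% (IFN-γ). For coding genes with at least 10 transcripts they were 81.8% and 79.2%. The lists are short, and none was tested against these shares. In the SIN3 list 10 of 11 had one in the control library and 9 did with IFN-γ. *SAP18* had none, and *SIN3B* only a control peak, at 3.89. In the CoREST list 6 of 6 and 5 had one, *HMG20B* being at 4.0 in the control library only. The genes with the best mean rank over both libraries were *GATAD2A* for NuRD (23.1 and 20.3), *ARID4A* for SIN3 (23.6 and 42.0, with *ARMH4* as the nearest coding TSS, and behind *ING1* and *SUDS3* in the control library), *RCOR3* for CoREST (36.8 and 41.2), *TRERF1* for MiDAC (18.7 and 17.0) and *MEF2A* among the class IIa partners (73.1 and 41.7).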

How the data were processed

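The authors used Cutadapt 1.18 for trimming of the read pairs, Bowtie2 2.3.4.1 for alignment (GRCh38), Picard for duplicates and MACS 2.1.2 for peaks, library by library, with a p-value limit of 0.01. The lowest −log10 p in the deposited lists was 3.52 (control) and 3.46 (IFN-γ), so they hold no peak near that limit. Use of the input is not given in the sources used here. The input libraries are not analysed here. The deposited narrowPeak lists give the fold enrichment at the summit (a ratio to local background), −log10 p and −log10 q. The deposited display score was not used.

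Positions were made 1-based. The whole pileup and the background behind each summit were solved from fold and −log10 p (largest relative error 6.21e-06). Median pileups were 16 (control) and 22 (IFN-γ) fragments. A missing peak was below the calling cutoff, which does not show an unbound site. Pileups were scaled by the ratio of lowest backgrounds (1.46), or of median backgrounds (1.83) as an alternative. Pairs were overlapping peaks whose summits were mutually closest. Ratio intervals are exact binomial. Genes came from GENCODE 44; sequences came from the GRCh38 reference.

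All 10 genes are named, with the strongest promoter and other peak of each, and from each list the gene with the best mean rank over both libraries and those without a peak. The results of 1 of the lists are not reported here; its genes are in the totals over all lists. Members and lists were chosen with earlier results of these data known. On simulated data 7 steps were tested, and each returned 100% of the known answers. They were pileup recovery, promoter calls per gene and per peak, overlaps, nearest TSS distances, motif search and tandem runs. Ratio intervals were checked for coverage only. The pairing of peaks and their placement in genes, introns and UTRs were not tested in this way. Scripts ran in Python 3.11.15 (pysam 0.24.0 for sequence, scipy 1.17.1 for intervals, numpy 2.4.6, matplotlib 3.10.9 and pandas 2.3.3).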

Additional observations from a re-analysis of the deposited data

How the results depend on the processing

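Of 77 values under an alternative, 66 stayed within the interval of the reported value or, for counts, within 1.5 times. Some of these 66 could not have moved. The control list was already the shorter, so lists of equal length could not change its counts. Every HDAC peak had a q-value under 0.01, so that limit could not change the HDAC counts or motif shares. The figure of 66 is thus not a measure of robustness. Narrower searches lower the peak counts by construction, to 29 (control) and 35 (IFN-γ) within 10 kb, and to 23 and 29 in genes and promoters. Stricter overlap lowers the shared percentages by construction, to 59.3% and 57.4% when 50% of each peak must overlap and to 57.6% and 55.7% when the summits must lie less than 100 bp apart. The median ratio at HDAC promoters became 0.613 with median backgrounds, a scaling that lowers the median over all promoter pairs by the same factor. GGAA in place of the longer motif gave 93.3% and 94.1%. Promoter peaks in the IFN-γ library were at 8 HDAC genes with lists of equal length, without *HDAC3* and *HDAC4*, and at 9 with 1 TSS per gene, without *HDAC9*. Requiring the nearest coding TSS to be that of the HDAC gene, chosen after seeing the data as was the 1.83 factor for IFN-γ-only peaks, gave 8 and 9, without *HDAC3*. Ratios at *HDAC6*, *HDAC7* and *HDAC8* lay on either side of 1 across settings. No paired analysis was possible because PBS and IFN-γ were represented by 1 library each. Pileups of under 30 fragments at most HDAC promoters limit what single ratios can show.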

Other observations

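Many peaks within 50 kb of an HDAC gene lay closer to a neighbour. The nearest coding TSS was that of another gene for 32 of 36 such control peaks and 25 of 32 such IFN-γ peaks. The same share around all coding genes was not calculated, so these counts do not show a trait of the HDAC genes. The strongest near *HDAC3* lay 17.7 kb downstream of its MANE TSS and, in the control and IFN-γ libraries, 72 bp and 49 bp from a TSS of *DIAPH1*, which encodes an actin-nucleating formin, with fold enrichments of 21.3 and 24.7. Near *HDAC10*, the promoter peaks of *MAPK12* and *MAPK11*, which encode p38 kinases, had fold enrichments of 31.1 and 19.1 and of 16.1 and 11.2. The scaled pileup ratio at *MAPK12* was 0.60 (exact 95% interval 0.410 to 0.875).

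Near *HDAC7*, a pair of peaks at *SLC48A1*, which encodes a heme transporter, had ratios on opposite sides of 1. At the peak whose IFN-γ summit lay 66.0 kb from the *HDAC7* MANE TSS, 63 control and 143 IFN-γ fragments gave a ratio of 1.56 (1.15 to 2.13). At the peak 60.7 kb away 63 and 58 fragments gave a ratio of 0.632 (0.435 to 0.918). With median backgrounds the first became 1.24 (0.918 to 1.70), with 1 inside the interval, and the second 0.504 (0.347 to 0.732).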
